A study of Rattus norvegicus with 22 samples.

Results

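The 10 genes described here encode chemokines that draw lymphocytes into tissue and the receptors that lymphocytes carry for them. They were chosen by name, namely the ligands Cxcl9, Cxcl10, Cxcl11, Cxcl13, Cxcl16 and Ccl19 and the receptors Cxcr3, Cxcr5, Cxcr6 and Ccr7, and all 10 of 10 were found among the 19167 gene symbols of the array, each with 1 probe. Expression was measured in the tongues of 11 male F344 rats, about 33 weeks old, that drank water with 20 ppm of the carcinogen 4-NQO (4-nitroquinoline 1-oxide) for 10 weeks and were killed 23 to 26 weeks after the first exposure. Each rat gave 1 piece of oral squamous cell carcinoma (OSCC) and 1 piece of adjacent, phenotypically normal tongue, and each piece was hybridized to its own Agilent Rat GE 4x44K v3 array in 1 color, 22 in all. The titles of all 22 arrays say untreated, and for the normal pieces the treatment label is none (a dose of 0 ppm), whereas the protocol and the study's methods describe them as tissue of the same carcinogen-treated rats, so that the normal pieces are not tongues of unexposed animals.

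Chemokines are small secreted proteins that direct the migration of leukocytes along a gradient, by way of receptors that signal through G proteins. Cxcl9, Cxcl10 and Cxcl11 are induced by interferons and share 1 receptor, Cxcr3, which is carried mostly by activated T cells and natural killer cells. Cxcl13 and its receptor Cxcr5 guide B cells and follicular helper T cells into lymphoid follicles, Ccl19 and Ccr7 guide naive T cells and mature dendritic cells into T cell zones, and the membrane-bound ligand Cxcl16 attracts effector and tissue-resident T cells that carry Cxcr6. Clusters of B and T cells that form in chronically inflamed tissue, tertiary lymphoid structures, are known to make Cxcl13 and Ccl19.

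The question was which of these ligands and receptors differed between OSCC and the adjacent tissue, and whether they varied over the 11 pairs with genes of T and B cells. OSCC and normal tissue were compared within each rat by limma, a linear model fitted to all 30367 probes, with Benjamini-Hochberg adjustment over all of them. A call required an adjusted p below 0.05 together with a mean change of 2-fold or more. Levels are on the log2 scale and relative to the array, so that 0 is the 75th percentile of the array's probes and a difference of 1 between tissues is 2-fold. Cxcl13, Cxcl16, Cxcr6 and Ccr7 were called higher in OSCC, while Cxcl9, Cxcl10, Cxcl11, Ccl19, Cxcr3 and Cxcr5 were not called. Thus 4 of 10 members were called higher, beside 7.48% of all 19167 symbols, and 0 of 10 lower, beside 7.24% of all symbols. With an unadjusted p below 0.05 from limma or from the methods' t-test, the number lower by 2-fold was also 0. The median log2 difference of the members was 0.84 and that of all symbols -0.21.

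Libraries and tissues differed in several respects that bear on all of these values. The 75th percentile of signal lay between 236.8 and 654.9 units on normal arrays and between 338.7 and 1414 on OSCC arrays, and 48.4% to 56.08% and 52.27% to 65.49% of probes carried the scanner software's flag for a signal well above background. The median difference of all probes was -0.24, and it was -0.03 after quantile normalization, -0.44 with the arrays scaled to their median, -0.15 with the percentile of detected probes, -0.08 after normexp background correction and -0.14 in the authors' own scaled values. Normal pieces occupied 3 slides and OSCC pieces 4 different slides. A first scan day covered every normal array and the OSCC arrays of animals 4 and 9, and another day covered the remaining 9 OSCC arrays. Across all probes, the differences of animals 22 and 24 correlated by 0.21 and 0.26 with the mean of the other pairs, those of animals 17 and 21 by 0.47, and those of the remaining 7 by 0.76 to 0.84. The mean level of 8 squamous keratin and desmosome genes, which mark tongue epithelium, was 4.96 to 5.86 in normal tissue and 3.06 to 6.03 in OSCC, so that epithelium was present in both. The mean level of 12 skeletal muscle genes was 5.25 to 6.77 in normal tissue and 1.39 to 7.43 in OSCC, and its difference was above 0 in animals 21, 22 and 24 (1.13 to 1.62) and from -3.95 to -0.83 in the other 8 pairs. In pieces of whole tissue, fewer cells of a type and less RNA per cell cannot be told apart.

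Of the 10 members, 8 have a promoter entry in RefSeq (assembly GRCr8), and Cxcr5 and Ccr7 have none. The sequences of the Cxcr3 ligands are shown because these genes lie near each other on chromosome 14 and share a receptor, yet differed over the pairs in ways described further on. Each is the 250 bases before the start of the gene, 5′ to 3′ on the plus strand, at chr14:16006916-16007165 for Cxcl9, chr14:15988816-15989065 for Cxcl10 and chr14:15973478-15973727 for Cxcl11. Capitals mark GAAATTCC, letters of the site that NF-kB factors are known to bind, searched on both strands and chosen after the sequences had been seen.
Cxcl9: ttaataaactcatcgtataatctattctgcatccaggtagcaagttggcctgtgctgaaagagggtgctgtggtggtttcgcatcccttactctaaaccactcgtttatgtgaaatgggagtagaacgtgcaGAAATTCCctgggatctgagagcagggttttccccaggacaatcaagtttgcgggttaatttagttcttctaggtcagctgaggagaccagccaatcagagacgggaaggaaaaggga
Cxcl10: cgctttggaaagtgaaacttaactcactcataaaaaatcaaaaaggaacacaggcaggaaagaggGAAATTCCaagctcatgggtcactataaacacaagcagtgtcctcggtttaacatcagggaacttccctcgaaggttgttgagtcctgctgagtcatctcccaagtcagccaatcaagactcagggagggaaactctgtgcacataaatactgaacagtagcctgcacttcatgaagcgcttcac
Cxcl11: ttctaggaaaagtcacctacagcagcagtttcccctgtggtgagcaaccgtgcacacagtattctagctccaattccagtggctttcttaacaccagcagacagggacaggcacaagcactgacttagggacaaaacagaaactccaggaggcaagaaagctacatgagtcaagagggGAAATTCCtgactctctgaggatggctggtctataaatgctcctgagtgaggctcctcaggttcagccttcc
The motif began 118 bases before the start in Cxcl9, 185 in Cxcl10 and 72 in Cxcl11, and was in none of the other 5 member promoters on file. Among the 33469 promoter windows of this length, 264 (0.789%) hold it. The AP-1 motif TGAGTCA was found in Cxcl10, Cxcl11 and Cxcr6 (4.05% of all windows), the interferon response motif (GAAA and GAAA with 2 bases between them) in Cxcl10 and Ccl19 (3.41%) and the STAT-type motif TTCNNNGAA in Cxcl11 (7.67%). No marked motif overlaps another of these. These are matches of letters and do not show binding.

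Among the ligands for Cxcr3, Cxcl9 (probe at chr14:17288831-17288890, rn4) was well above background on every array. Its log2 level was -0.92 at the lowest, -0.54 at the median and 0.91 at the highest in normal tissue, and -1.92, -0.69 and 1.5 in OSCC. The groups overlapped over the whole normal range, and OSCC spread wider in both directions. The mean was -0.39 ± 0.52 in the normal pieces and -0.42 ± 1.06 in the OSCC pieces (SD, n = 11), a difference of -0.03 (SE 0.30, limma adjusted p = 0.932), and OSCC was higher in 5 of 11 pairs. The sign of so small a difference changed with the scaling, to 0.11 after normexp correction and 0.05 with the percentile of detected probes.

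Cxcl10 (chr14:17267994-17268053), also well above background on all arrays, had a lowest, median and highest log2 level of -2.24, -1.65 and 0.37 in normal tissue and of -3.61, -1.42 and 2.21 in OSCC. Again OSCC lay both above and below the normal range, with the highest value in animal 21 and the lowest in animal 24. The mean difference was 0.26 (SE 0.50, limma adjusted p = 0.675), from -1.40 ± 0.77 to -1.13 ± 1.58 (SD, n = 11), and OSCC was higher in 6 pairs. Single pairs ran from -2.45 in animal 22 to 3.01 in animal 21, and without animal 21 the difference was -0.01 (limma adjusted p = 0.982).

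Cxcl11 (chr14:17252192-17252251) was dimmer, and well above background on 6 normal arrays and 8 from OSCC. Its log2 level was -6.00, -3.60 and -1.27 in normal tissue and -5.13, -3.12 and -0.42 in OSCC at the lowest, median and highest. The mean was -4.0 ± 1.43 in the normal pieces and -3.11 ± 1.47 in the OSCC pieces (SD, n = 11), and the difference of 0.89 (SE 0.62, limma adjusted p = 0.244; higher in 8 pairs) was not called. Pairs ranged from -3.58 in animal 22 to 4.31 in animal 25. With animals 21, 22 and 24 left out, limma gave 1.55 (adjusted p = 0.0232), which was called.

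The receptor Cxcr3 (chrX:89794887-89794946) had log2 levels of -4.10, -2.70 and -0.96 in normal tissue and of -3.62, -1.60 and -0.46 in OSCC at the lowest, median and highest, and was well above background on 9 and 10 arrays. The highest normal value, in animal 22, exceeded all but 2 of the OSCC values. The mean was -2.69 ± 0.92 in the normal pieces and -1.90 ± 1.02 in the OSCC pieces (SD, n = 11), a difference of 0.79 (SE 0.40, limma adjusted p = 0.122) with OSCC higher in 7 pairs. It was not called over all 11 pairs, but was without animal 22 (1.04, adjusted p = 0.0391) and without animals 21, 22 and 24 (1.23, limma adjusted p = 0.0243).

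Of the follicle axis, the ligand was called and the receptor was not. Cxcl13 (chr14:15127379-15127438) had a lowest, median and highest log2 level of -4.58, -2.11 and 0.28 in normal tissue, where 9 arrays were well above background, and of -1.90, 1.96 and 4.06 in OSCC, where all 11 were. In OSCC 8 arrays lay above every normal array, and the other 3, from animals 17, 22 and 24, lay between -1.90 and -0.73. The mean was -2.13 ± 1.38 in the normal pieces and 1.48 ± 2.16 in the OSCC pieces (SD, n = 11), which is 12.2-fold higher (log2 difference 3.61, SE 0.83, limma adjusted p = 0.00537). The difference was positive in 10 pairs, up to 7.35 in animal 25, and was -2.08 in animal 22. Over the alternatives it ranged from 2.85 after normexp correction to 5.0 with scan day as a term.

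Cxcr5 (chr8:47485148-47485207) was near background, and well above it on 3 normal arrays and 7 from OSCC. Its log2 level was -4.48, -3.81 and -3.43 in normal tissue and -4.72, -4.07 and -3.65 in OSCC at the lowest, median and highest, a range of little more than 1 unit in which the groups almost wholly overlapped. The means were -3.88 ± 0.33 and -4.10 ± 0.32 (SD, n = 11), and the difference of -0.22 (SE 0.16, limma adjusted p = 0.262; OSCC higher in 4 pairs) was not called.

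**Figure D1:**
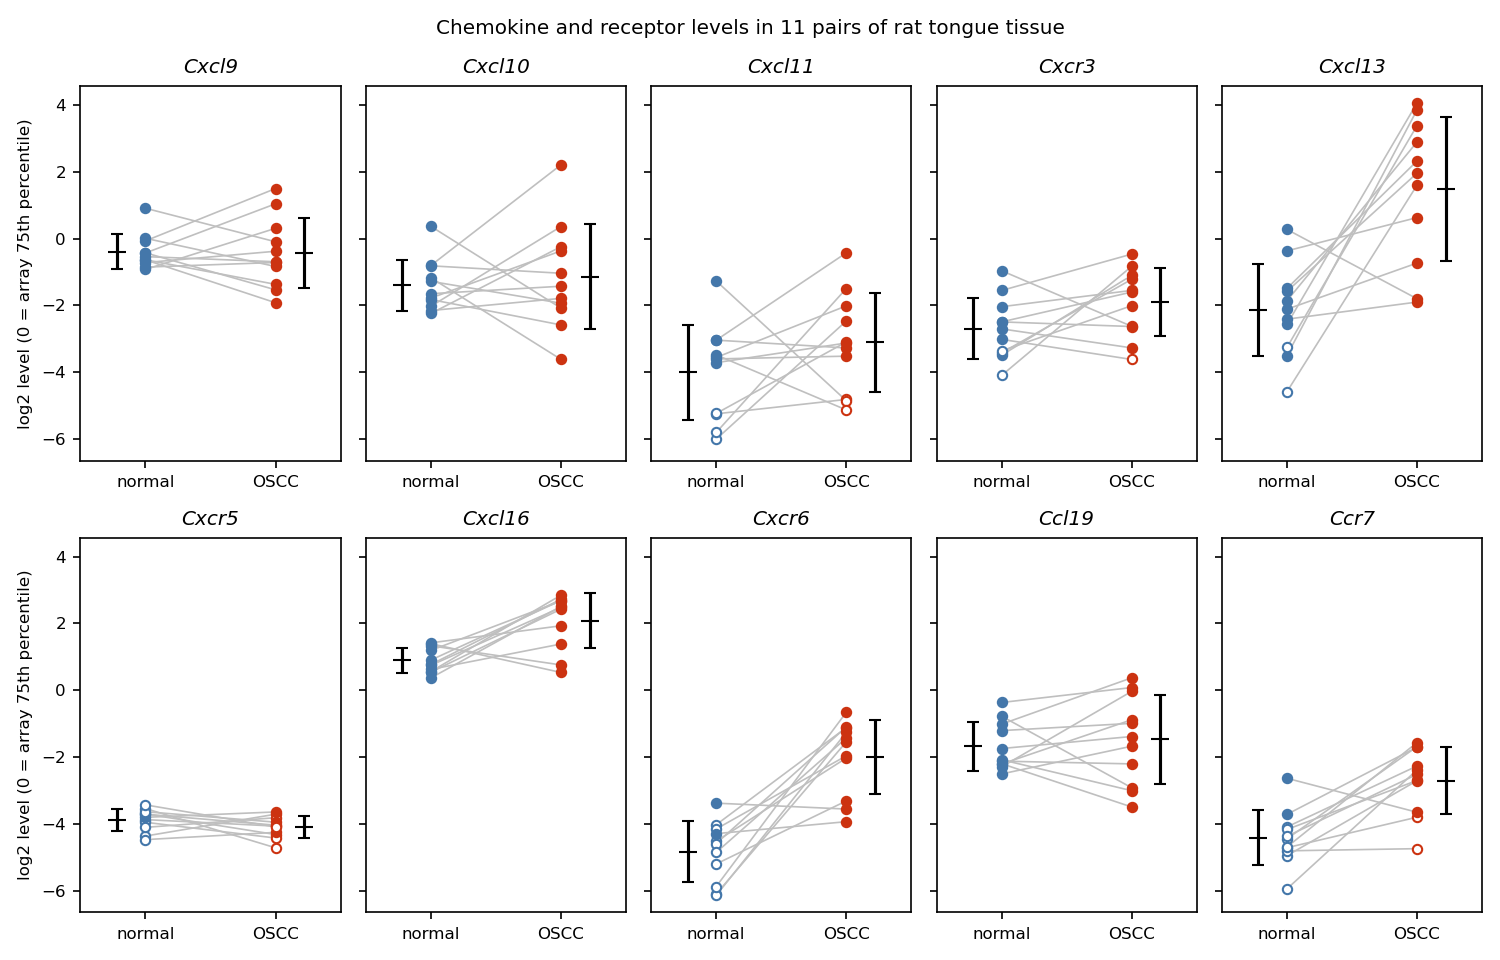
Log2 level (0 is the 75th percentile of the array) of the 10 genes in normal tissue (blue) and OSCC (red) of 11 rats, with grey lines joining the tissues of a rat, open points for arrays not well above background, and black bars for mean ± SD. Cxcl13, Cxcr6, Ccr7 and Cxcl16 rise in most pairs, by mean log2 differences of 3.61, 2.84, 1.71 and 1.19, while Cxcl9 and Cxcr5 lie at similar levels in both tissues.

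Both genes of the Cxcl16 and Cxcr6 axis were called higher. Cxcl16 (chr10:57296159-57296218), well above background on every array, had log2 levels of 0.37, 0.77 and 1.42 in normal tissue and of 0.53, 2.48 and 2.85 in OSCC at the lowest, median and highest. In OSCC 8 arrays exceeded every normal array, and those of animals 17, 22 and 24 did not. The mean went from 0.89 ± 0.38 to 2.09 ± 0.83 (SD, n = 11), a 2.28-fold rise (log2 difference 1.19, SE 0.30, limma adjusted p = 0.00947), which was positive in 9 pairs and -0.86 and -0.57 in animals 22 and 24. This gene lay close to the 2-fold threshold. It was not called with arrays scaled to their median (0.99), after normexp correction (1.02, adjusted p = 0.0593) or in the 9 pairs whose tissues were scanned on different days (1.03, limma adjusted p = 0.0557).

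Cxcr6 (chr8:128570227-128570286) cleared background on 2 of the normal arrays and all 11 OSCC arrays. Log2 levels were -6.14, -4.59 and -3.38 in normal tissue and -3.94, -1.55 and -0.66 in OSCC at the lowest, median and highest. The groups overlapped only at animals 22 and 24, whose OSCC values of -3.56 and -3.94 lay below the highest normal value. The mean was -4.83 ± 0.91 in the normal pieces and -1.99 ± 1.11 in the OSCC pieces (SD, n = 11), 7.15-fold higher (log2 difference 2.84, SE 0.47, limma adjusted p = 0.000996), with OSCC higher in 10 pairs and a value of -0.18 in animal 22. Because 9 normal arrays were not well above background, the fold depends on how background is treated, and it was 1.07 on the log2 scale after normexp correction (limma adjusted p = 0.00906).

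In the T cell zone axis the receptor was called and the ligand was not. Ccl19 (chr5:59221790-59221849), well above background on every array, had log2 levels of -2.51, -2.08 and -0.37 in normal tissue and of -3.50, -1.39 and 0.37 in OSCC. OSCC values lay on both sides of the normal ones, and the difference of 0.22 (SE 0.35, limma adjusted p = 0.624; -1.69 ± 0.72 against -1.47 ± 1.33, SD, n = 11) was positive in 7 pairs. It ran from -2.14 in animal 17 to 2.26 in animal 9.

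Ccr7 (chr10:87925806-87925865) had log2 levels of -5.95, -4.45 and -2.64 in normal tissue and of -4.75, -2.52 and -1.57 in OSCC at the lowest, median and highest, with 2 normal and 9 OSCC arrays well above background. The highest normal array was that of animal 22, and the lowest OSCC arrays those of animals 24, 17 and 22. The mean rose 3.27-fold, from -4.42 ± 0.82 to -2.71 ± 1.00 (SD, n = 11; log2 difference 1.71, SE 0.37, limma adjusted p = 0.00375), and the difference was positive in 10 pairs and -1.02 in animal 22. After normexp correction it was 0.61 (limma adjusted p = 0.167) and was not called.

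No member was higher in OSCC in all 11 pairs, beside 4.67% of all symbols, and for none did every OSCC array lie above every normal array, beside 0.694% of all symbols. Animal 22 had the lowest difference of the 11 pairs for Cxcl10, Cxcl11, Cxcr3, Cxcl13, Cxcl16, Cxcr6 and Ccr7. Its normal piece had the highest level among the normal pieces for Cxcl9, Cxcl10, Cxcl11, Cxcr3, Cxcl13, Cxcr6, Ccl19 and Ccr7. The study named animals 21, 22 and 24 for variable expression on these same arrays. With them left out, limma called 6 members higher, the same 4 with Cxcl11 and Cxcr3. For Cxcl11 the differences of animals 22 and 24 were -3.58 and -1.65, so that leaving these out raises the mean. The added calls are thus no independent support, and the share of all symbols called without the 3 animals was not counted.

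Scan day could be separated from tissue in part. In the pairs of animals 4 and 9, whose 2 arrays were scanned on the same day, the log2 differences were 3.82 and 6.19 for Cxcl13, 1.95 and 1.89 for Cxcl16, 2.49 and 3.49 for Cxcr6 and 2.25 and 3.56 for Ccr7, all positive. In the 9 other pairs alone, limma called 3 members, namely Cxcl13 (3.30, adjusted p = 0.032), Cxcr6 (2.81, adjusted p = 0.00796) and Ccr7 (1.45, adjusted p = 0.0238). With scan day as a further term, each difference is the mean of the pairs of animals 4 and 9 alone. The other 9 pairs inform only the day term, as every normal array was scanned on the first day. For this fit the share of all symbols passing was not counted, so its counts have no background to be read against. Limma called 0 members in it, and 5 were higher by 2-fold at an unadjusted p below 0.05. These were the 4 called members, with log2 differences from 1.92 to 5.0, and Ccl19 (1.79, unadjusted p = 0.0245 and limma adjusted p = 0.0962). In that fit the differences were 0.09 for Cxcl9, 1.11 for Cxcl10, 1.65 for Cxcl11, 1.44 for Cxcr3 and -0.89 for Cxcr5, the last with an unadjusted p of 0.018 (limma adjusted p = 0.0882). No slide held both tissues, so slide and tissue cannot be told apart within a slide.

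**Figure D2:**
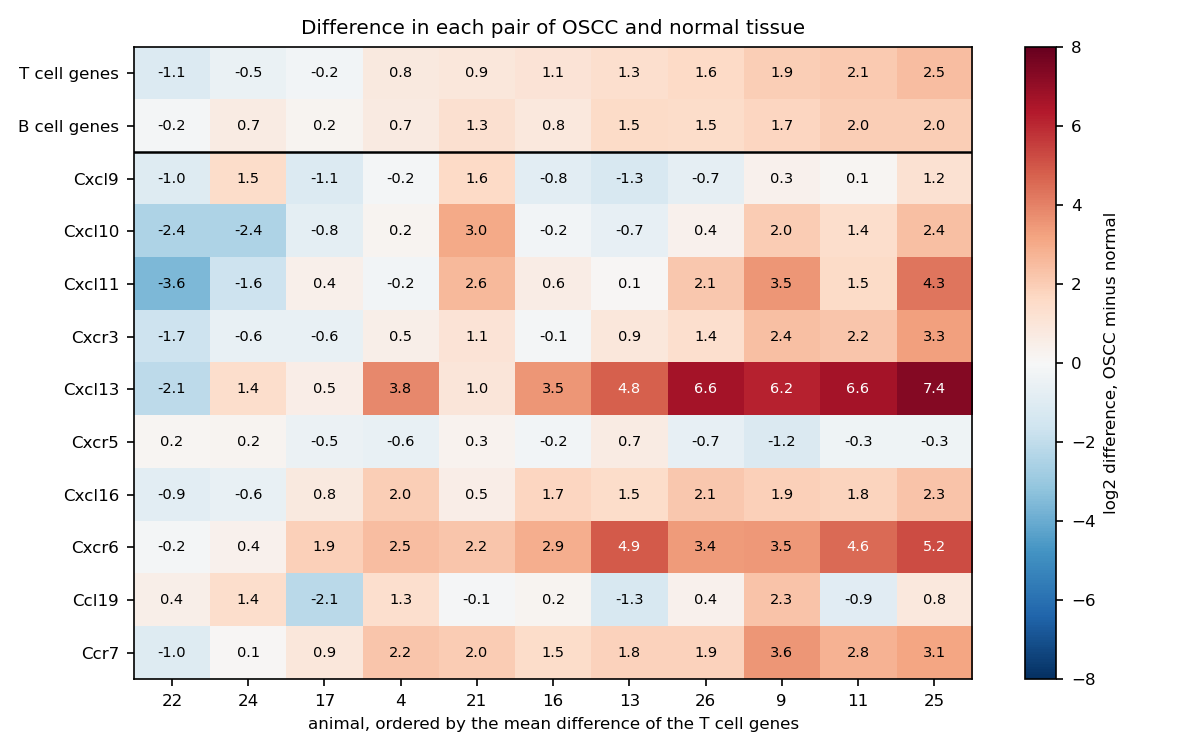
Log2 difference, OSCC minus normal, of each gene (rows) in each rat (columns), with red for higher and blue for lower in OSCC, with the mean differences of 18 T cell and 9 B cell genes in the upper rows and the columns ordered by the T cell genes. Cxcl13 reaches 7.35 at the right (animal 25) and is -2.08 at the left (animal 22), whereas Cxcl9, Cxcr5 and Ccl19 show no such order.

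Some genes of T cells were higher in OSCC as well. Of 22 listed T cell genes 21 were on the array (Themis was not found), and limma called 10 higher, 0 lower and 11 neither way, with a median log2 difference of 0.74 beside -0.21 over all symbols. The largest were Cd8a (3.11, limma adjusted p = 0.00256), which with Cd8b forms the co-receptor of cytotoxic T cells, Cd8b, which was at least 1.11-fold higher because no normal array was well above background, and Cd3e (1.70, limma adjusted p = 0.0259), a chain of the T cell receptor complex. The lineage factors Tcf7 (-0.49) and Bcl11b (-0.60) were not called. The count rested in part on single rats, since it was 6 without animal 9, 5 without animal 11 and 4 without animal 25. It also depended on the processing, since it was 1 after normexp correction and 3 in the 9 pairs scanned on different days. Over all probes, normexp correction called 686 higher, against 2083 without it. With scan day as a term, a fit whose differences rest on animals 4 and 9 alone, the count of T cell genes was 0 (5 without adjustment).

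Of 16 genes of B cells 14 were found (not Cd79a and Tnfrsf13c), and 5 were called higher and 0 lower, with a median of 0.54. Cd79b, a chain of the B cell receptor, was at least 1.59-fold higher, Blnk, an adaptor of that receptor also used by myeloid cells, was higher by 1.84 on the log2 scale (limma adjusted p = 7e-04), and Blk, a B cell kinase, was at least 1.29-fold higher. The defining markers were weak. Ms4a1 (CD20) cleared background on 0 normal and 2 OSCC arrays, while Cr2, Fcer2 and Bank1 did so on none. Plasma cell genes moved more, with 6 of 10 called higher, 0 lower and a median of 1.66. Mzb1, Pou2af1 and Jchain, which serve antibody assembly and its regulation, were at least 11.7-, 6.32- and 4.47-fold higher.

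Genes that respond to interferon gamma, the inducer of the Cxcr3 ligands, showed smaller differences. The list also holds the receptor genes Ifngr1 and Ifngr2 and the signalling gene Jak2. Of 20 listed 19 were found, and 2 were called higher and 0 lower, beside 7.48% and 7.24% of all symbols. The median was 0.33, and that of all symbols was -0.21. The called genes were Irf8 (1.54, adjusted p = 0.0177), a transcription factor of myeloid and B cells, and Socs1 (1.22, limma adjusted p = 0.0176), a feedback inhibitor of cytokine signalling. Ifng itself reached well above background on 0 of 22 arrays. The count was 4 without animal 17, 5 without animal 22 and 6 without animals 21, 22 and 24. Among 15 cytotoxic and effector genes found of 16 listed, 2 were called higher, beside 7.48% of all symbols, and the median was -0.04. Those called were the checkpoint receptors Pdcd1, at least 1.14-fold, and Ctla4, for which no fold could be bounded. In these lists of T cell, B cell, plasma cell, interferon and effector genes the number lower by 2-fold was 0 also at an unadjusted p below 0.05 from limma.

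Other genes of the chemokine system were counted from a list of 19, of which Ackr1 was not found. Of the 18 others 6 were called higher and 0 lower (0 also at an unadjusted p), and the median was 0.35. Rgs1, which dampens chemokine receptor signals in lymphocytes, was higher by 2.22 (adjusted p = 0.00374), Cxcr4, the receptor of Cxcl12, by 1.72 (limma adjusted p = 0.00275), and Adam10, a protease that sheds Cxcl16 from the cell surface, was at least 2.2-fold higher. Pf4, Ccrl2 and Rac2 were also called. Ccl21, the other ligand of Ccr7, had a difference of 0.26 (limma adjusted p = 0.457) at a log2 level of 3.30 ± 0.37 in the normal pieces and 3.56 ± 0.85 in the OSCC pieces (SD, n = 11). Dpp4, which clips the Cxcr3 ligands, had -0.19, near background, as only 1 normal and 4 OSCC arrays were well above it.

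For genes that organize lymphoid tissue, 18 of 19 listed were found, with a median of 0.37. In this list 3 were called higher and 1 lower, beside 7.48% and 7.24% of all symbols. Among those higher were the survival receptor Il7r, by 1.66 on the log2 scale, and lymphotoxin beta (Ltb), by 1.54. Of 13 dendritic cell genes found of 14, 2 were called higher, beside 7.48% of all symbols, and 0 lower, with a median of 0.40. The called genes were Cd86 (at least 2.76-fold) and Fscn1 (log2 difference 2.04). In 10 of the 13 the difference was above 0. Cd80 (-0.53), Lamp3 (-0.46) and Xcr1 (-0.44), all near background, lay below it and were not called. Genes of other cells also moved with tissue, and their part in the differences of the members and of the lists above, plasma cell genes included, was not tested. Of 12 macrophage genes 8 were called higher (median 1.37, level -1.33 to -0.15 in normal tissue and -0.59 to 1.22 in OSCC), of 12 gland genes 11 were higher (median 7.04, level -5.81 to -3.83 and -3.84 to 7.47), of 12 muscle genes 8 were lower and 1 higher (median -1.95), and of 10 endothelial genes 0 were called by limma (0 also at an unadjusted p below 0.05 and 2-fold).

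**Figure D3:**
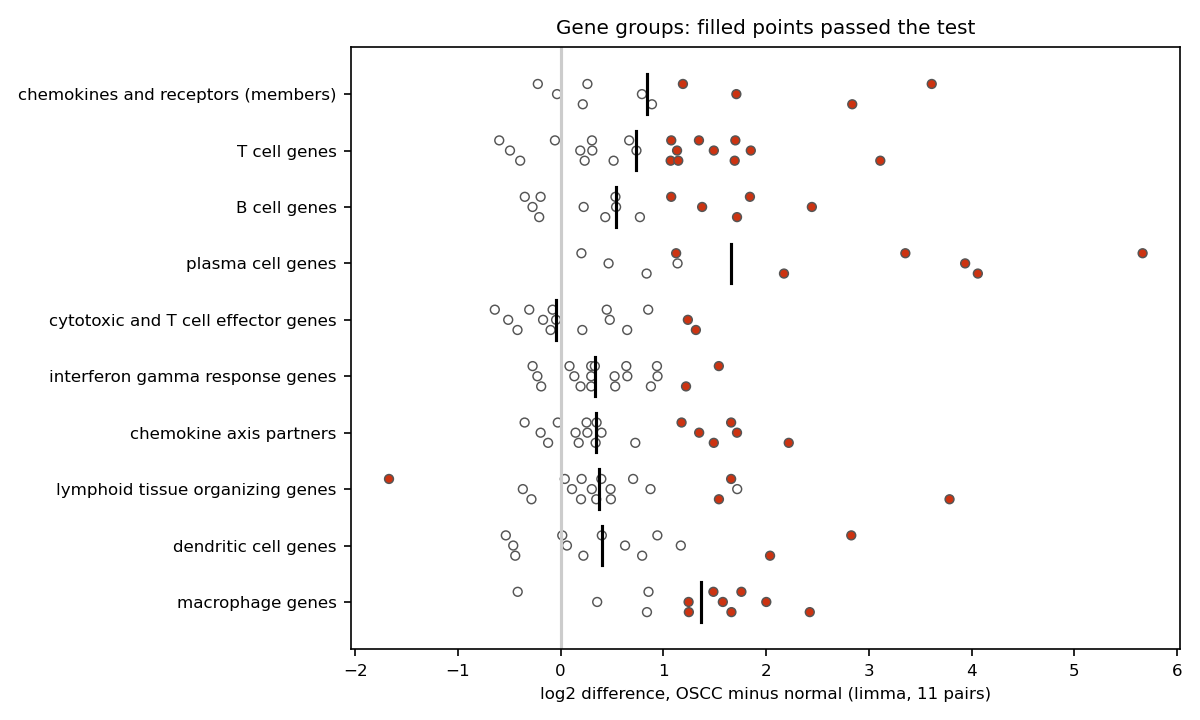
Log2 difference, OSCC minus normal, of every gene found in 10 groups (1 row each), with filled points for genes called by limma, open points for the rest and a vertical bar at the median. Called genes lie to the right of 0 but for 1 of the lymphoid tissue group, and the medians run from -0.04 for cytotoxic genes to 1.66 for plasma cell genes, with 0.84 for the 10 chemokines and receptors.

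Over the 11 pairs, most members varied with the genes of lymphocytes. For each pair the differences of the 18 T cell genes and of the 9 B cell genes well above background on at least 6 OSCC arrays were averaged, giving -1.12 (animal 22) to 2.48 (animal 25) for T cell genes and -0.17 (animal 22) to 1.98 for B cell genes. In all, 29 relations were computed, 26 of them planned, and the p-values come from permutation tests (two-sided, 100000 resamples) with Benjamini-Hochberg adjustment over the 29. The difference of a member and that of the lists come from the same arrays and so share their scaling. As a background, the median Pearson r of 10163 other symbols with the T cell genes was 0.06, and 5.99% of them had r above 0.8 and 1.41% above 0.9. For the B cell genes and 10176 symbols these values were 0.05, 2.96% and 0.442%. The mean difference of the dendritic cell genes was also lowest in animal 22 (-0.72) and highest in animal 25 (1.52), and that of muscle genes was 1.13 and -3.95 there. The T and B cell lists were not set against each other, nor members against other cells' lists. Whether these relations are particular to lymphocytes was thus not tested.

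The receptors Cxcr3, Cxcr6 and Ccr7 followed the T cell genes closely. For Cxcr3 Pearson's r was 0.95 and Spearman's rho 0.94 (adjusted permutation p = 0.00029 and 0.00087), for Cxcr6 0.93 and 0.94 (adjusted permutation p = 0.000348 and 0.00087) and for Ccr7 0.93 and 0.83 (adjusted permutation p = 0.000348 and 0.0073). Of the ligands, Cxcl13 had r = 0.94 and rho = 0.91 (adjusted permutation p = 0.000348 and 0.00174), Cxcl16 0.89 and 0.78 (0.00113 and 0.0156), Cxcl11 0.87 and 0.82 (0.00113 and 0.00759) and Cxcl10 0.80 and 0.75 (0.00645 and 0.0201). These 7 members thus varied together with T cell genes whether or not they were called between the tissues. Without the 2 pairs farthest from the median of the T cell genes, Cxcr3 (r = 0.92, rho = 0.90), Cxcl13 (0.91 and 0.90) and Cxcr6 (0.83 and 0.88) passed the adjusted exact permutation test by both measures. Ccr7 passed by r (0.82) and not by rho (0.68, adjusted exact permutation p = 0.112). Cxcl16 (0.70 and 0.60), Cxcl11 (0.68 and 0.67) and Cxcl10 (0.55 and 0.53) passed by neither. In the 9 pairs scanned on different days, a different set of pairs, they passed by r, at 0.92, 0.86 and 0.78. There the adjusted exact permutation p was 0.0015, 0.00513 and 0.0265. By rho Cxcl16 (0.95) and Cxcl11 (0.75) passed there, and Cxcl10 (0.73, adjusted exact permutation p = 0.0531) did not. Why these calls were lost without the farthest pairs was not tested. Within the 9 pairs scanned on different days r lay between 0.78 (Cxcl10) and 0.96 (Ccr7) for these 7. The 2 pairs scanned on 1 day were too few for a value.

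Cxcl9, Ccl19 and Cxcr5 showed no such relation that passed the test. With the T cell genes r was 0.20 and rho 0.22 for Cxcl9 (adjusted permutation p = 0.61 and 0.578), 0.11 and -0.01 for Ccl19 (0.756 and 0.989) and -0.37 and -0.33 for Cxcr5 (0.326 and 0.413). The animals show where Cxcl9 parted from the others. In animal 24 it was higher in OSCC by 1.47, while Cxcl10 was at -2.44 and the T cell genes were at -0.52, and in animal 13 it was at -1.28 while the T cell genes were at 1.34.

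With the B cell genes the order was much the same. Pearson's r was 0.95 for Cxcr3, 0.90 for Cxcl13, 0.88 for Cxcr6, 0.87 for Ccr7, 0.82 for Cxcl11, 0.75 for Cxcl10 and 0.73 for Cxcl16, all with adjusted permutation p at or below 0.0189, and rho was 0.94, 0.86, 0.92, 0.83, 0.75, 0.75 and 0.65, of which that of Cxcl16 did not pass (adjusted permutation p = 0.0553). For Cxcl9, Ccl19 and Cxcr5 r was 0.36, 0.11 and -0.21 and rho was 0.30, -0.02 and -0.18 (adjusted permutation p at least 0.334). Without the 2 farthest pairs Cxcr3 (r = 0.92, rho = 0.88) and Cxcr6 (0.83 and 0.87) passed by both measures and Ccr7 by r (0.76) but not by rho (0.70, adjusted exact permutation p = 0.112). Cxcl13 (0.78 and 0.75) and Cxcl11 (0.76 and 0.68) lay at the threshold by r, both with an adjusted exact permutation p of 0.05, and did not pass by rho, and Cxcl10 (0.64 and 0.55) and Cxcl16 (0.53 and 0.45) passed by neither. In the 9 pairs scanned on different days, r lay between 0.74 and 0.96 for these 7. Cxcr5, itself a receptor of B cells, thus did not vary with the other genes of these cells to an extent that the test could show, at a signal close to background.

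**Figure D4:**
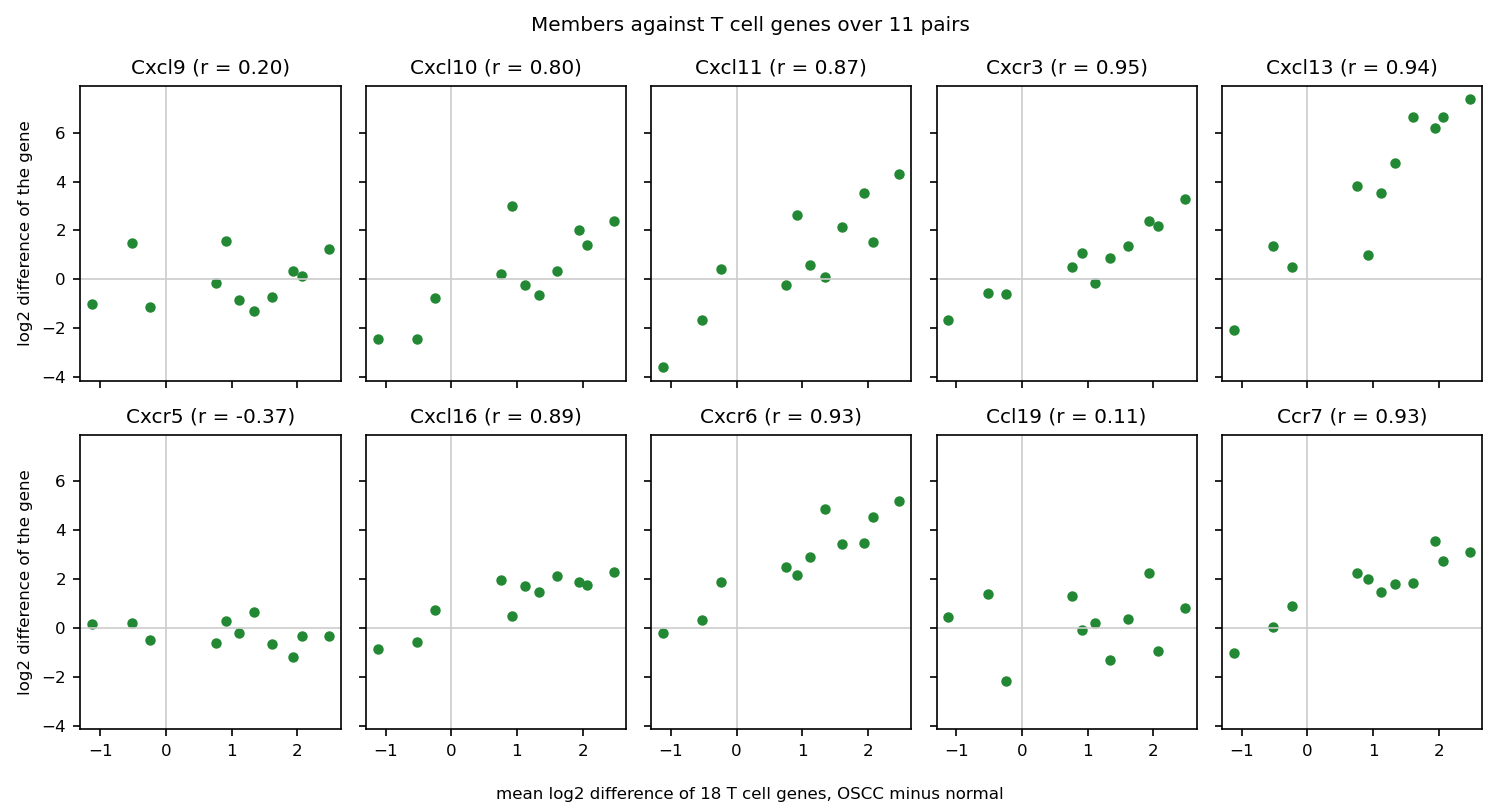
Log2 difference, OSCC minus normal, of each member (vertical axis) against the mean difference of 18 T cell genes (horizontal axis), 1 point for each of 11 rats, with Pearson's r above each panel. Points lie along a rising line for Cxcr3 (0.95), Cxcl13 (0.94), Cxcr6 (0.93) and Ccr7 (0.93) and scatter for Cxcl9 (0.20) and Ccl19 (0.11).

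Ligands were also set against their own receptors. Cxcl11 and Cxcr3 had r = 0.90 and rho = 0.86 (adjusted permutation p = 0.00108 and 0.00384), Cxcl10 and Cxcr3 0.84 and 0.87 (0.00309 and 0.00377) and Cxcl16 and Cxcr6 0.87 and 0.75 (0.00143 and 0.0201). No relation passed the test for Cxcl9 and Cxcr3 (0.41 and 0.47, adjusted permutation p = 0.282 and 0.211), Cxcl13 and Cxcr5 (-0.45 and -0.41, 0.23 and 0.279) or Ccl19 and Ccr7 (0.18 and 0.25, 0.637 and 0.522). Without the 2 pairs farthest from the receptor's median, Cxcl11 and Cxcr3 passed by r (0.78) and not by rho (0.75, adjusted exact permutation p = 0.0821), Cxcl10 and Cxcr3 by rho (0.83, adjusted exact permutation p = 0.0342) and not by r (0.75, at 0.05), and Cxcl16 and Cxcr6 (0.60 and 0.53) by neither. For Ccl19 and Ccr7 both measures were 0.70 without those pairs, which did not pass (adjusted exact permutation p = 0.0726 and 0.112). Among the Cxcr3 ligands, whose promoters are printed above and whose relations were added after values were seen, Cxcl10 and Cxcl11 had r = 0.91 and rho = 0.90 (adjusted permutation p = 0.000677 and 0.00174; r = 0.88 without the 2 farthest pairs). Cxcl9 had 0.47 and 0.61 with Cxcl10 (0.228 and 0.0785) and 0.40 and 0.45 with Cxcl11 (0.297 and 0.225). In the 9 pairs scanned on different days r was 0.89 for Cxcl11 and Cxcr3, 0.82 for Cxcl10 and Cxcr3, 0.91 for Cxcl16 and Cxcr6 and 0.91 for Cxcl10 and Cxcl11.

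The genes whose differences over the 11 pairs were most like those of a member were sought among 10180 named symbols well above background on at least 11 arrays, as a description over the same arrays. The class I antigen genes RT1-CE6 (r = 0.885) and RT1-CE7 (0.865) were among the 3 most like Cxcl9. For Cxcl10 they were Cd7 (0.965), a receptor of T and natural killer cells, the immunoproteasome gene Psmb9 (0.945) and the interferon-induced Usp18 (0.937), and for Cxcl11 they were the T cell receptor-associated Cd6 (0.959), Irf8 (0.949) and RT1-EC2 (0.945). Cxcr3 was most like Cd247 (0.972), the zeta chain of the T cell receptor complex, Klrc3 (0.969) and Flt3 (0.963).

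Cxcl13 came closest to the cytokine receptor Il21r (0.977), Plek (0.972) and the signalling adaptor Hcst (0.967), all expressed by leukocytes. Ccr7 was most like the dendritic cell growth factor receptor Flt3 (0.960), the cytokine Il18 (0.957) and the Fc receptor Fcgr3a (0.957). For Cxcl16 the nearest were Snx20 (0.978), Sbno2 (0.978) and Sat1 (0.977), and for Cxcr6 they were Dusp6 (0.967), Wdr55 (0.965) and Limd2 (0.962). Cxcr5 had Hook3 (0.942), Mrfap1 (0.934) and Rnf152 (0.886), and Ccl19 had Cyp4a8 (0.936), Orc5l (0.901) and Rpap3 (0.885).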

How the data were processed

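Each of 22 RNA samples, 1 OSCC and 1 normal piece from each of 11 rats, was hybridized to 1 array, and samples were grouped by the tissue that the labels give. The authors scanned the arrays and used Agilent Feature Extraction (version 9.5.3.1, per the file headers), so that the deposited signal intensity values are background-subtracted, detrended and not scaled between arrays. The headers' flags mark spots well above background, saturated or outlying. The authors also deposited a table of each signal as a ratio to the 75th percentile of its array, which served as an alternative.

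Of 42877 spots that are no control spots, 9196 readings over the arrays (0.975%) marked as outliers were left out, log2 signals were averaged for each probe, and the array's 75th percentile was subtracted. Signals near background compress differences, and the number of arrays limits precision. Genes were found by the array's symbol, with the brightest probe of a symbol over all arrays, and the array annotation places probes on rn4 without naming exons. OSCC and normal tissue were compared by limma 3.58.1 in R 4.3.3 with animal and tissue as terms, on all 30367 probes. The pairing comes from the animal, and deviations of the 2 tissues of an animal from their group means correlated by -0.21 to 0.24 across probes. Of 200 probes changed by 3 log2 units among 30299 simulated ones, limma recovered 195 (97.5%) and called 4 unchanged probes. Relations used numpy 2.4.6 in Python 3.11.15, with exact enumeration for fewer than 10 pairs. Where every array of a tissue failed to reach well above background for a probe, its fold is a lower limit, against the lowest signal of any probe well above background on each array.

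Named genes were all members, the 3 called genes of each list with the largest differences (and the smallest, where any was called lower), and the 3 symbols most like each member. Genes named beside them, such as Ifng, Ccl21, Dpp4, Tcf7, Bcl11b, the other called partners and the weak B cell markers, were chosen after their values were seen. Some genes that this rule names are not reported here. The members and lists were chosen with earlier results of these data known. The alternatives were quantile, array median and detected-probe scalings, normexp with an offset of 50, the authors' ratio table, scan day, slide, no pairing, the methods' t-test, filters and leaving out pairs. Whether the study adjusted its p-values is not given in the sources used here.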

Additional observations from a re-analysis of the deposited data

How the results depend on the processing

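Cxcl13 and Cxcr6 were called in 24 of 25 alternatives each, Ccr7 in 23 and Cxcl16 in 21, and these 4 were higher in OSCC in all of them, with log2 differences of 2.85 to 5.0, 1.07 to 3.61, 0.61 to 2.90 and 0.99 to 1.92. The fit with scan day as a term takes its differences from the pairs of animals 4 and 9 alone. The cause of each other change below was not tested.

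With scan day as a term limma called 0 members, 0 T cell, 0 B cell, 0 plasma cell, 0 interferon and 0 chemokine partner genes, and without adjustment (p below 0.05, 2-fold) 5, 5, 3, 6, 3 and 3. After normexp correction the counts were 2, 1, 1, 5, 0 and 3 (for interferon genes 0 also unadjusted). T cell genes numbered 6 both with quantile normalization and array median scaling, 5 with slide as a random block and 3 in the 9 pairs scanned on different days. With probes above background on at least 11 arrays 2 B cell and 3 plasma cell genes were called, a test of fewer genes. Interferon genes numbered 4 with the percentile of detected probes, 6 without animals 21, 22 and 24, and 0 with slide as a random block or in the 9 pairs (unadjusted 2 in each). With each pair left out in turn the counts were 4 to 5 for members, 4 to 10 for T cell genes, 4 to 6 for B cell genes, 5 to 7 for plasma cell genes, 2 to 5 for interferon genes and 6 to 6 for partners. The fit without the replicate block, which ignores the pairing, called 4 members and changed no count of a list by over 1.5 times.

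Cxcl9 turned from -0.03 to 0.05 with the percentile of detected probes, 0.11 after normexp correction and 0.09 with scan day, and from -0.19 to 0.09 with pairs left out. Cxcl10 ran from -0.01 to 0.53 with pairs left out, and Ccl19 was -0.13 in the 9 pairs and 1.79 with scan day. None of these was called in any alternative. Among weak relations that never passed the test, r with the T cell genes on OSCC levels was 0.00 for Cxcl9, 0.14 for Cxcr5 and -0.36 for Ccl19, and r with the B cell genes -0.06, 0.02 and -0.31, while Cxcl13 and Cxcr5 had 0.08 and Ccl19 and Ccr7 -0.50. After quantile normalization Ccl19 had -0.01 and -0.09 with T and B cell genes, in the 9 pairs -0.05 with T cell genes and -0.18 with Ccr7, and without the 2 farthest pairs -0.29 with B cell genes, but 0.49 with T cell genes and 0.70 with Ccr7. On OSCC levels Cxcl10 and the B cell genes passed by rho (0.73) and not by r (0.61), while Cxcl13 and Cxcl16 with the T cell genes (rho 0.65 and 0.59) and Cxcl16 with Cxcr6 (rho 0.63) passed by r alone, as did Cxcl10 with both lists (rho 0.73 in each) and Cxcl11 with B cell genes (0.65) in the 9 pairs. Signals near background limit Cxcr5, Cxcl11, and the normal levels of Cxcr6 and Ccr7.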
